A study of Oryza sativa with 12 samples.

Results

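Developing caryopses of the knock-down line *RGB1Ri-5* at 10 days after flowering (DAF) were compared with caryopses of the same line at 5 DAF, with 3 libraries at each stage and thus 6 of the 12 libraries of the series. *RGB1Ri-5* is 1 of the *RGB1* RNA-interfered lines made in the rice cultivar Wuyujing 8 (*WYJ8*). It carries a hairpin of an *RGB1* fragment behind the maize ubiquitin promoter, which is active in most tissues, so that the knock-down is not limited to the caryopsis. The other 6 libraries, of *WYJ8* at 10 DAF and at 5 DAF, are used here only where a difference from the wildtype is given. Spikelets had been labelled by flowering date in the field, and many labelled panicles were sampled at each time. For the sequencing, the methods do not say how panicles were divided among the 3 libraries of a group. The p-values therefore measure the spread between these libraries, which may be technical.

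Each library gives FPKM, in which fragments are divided by transcript length and by the reads of the library. Depths are unknown, so that no counting error can be given. Between 28471 and 29171 genes were listed in the *RGB1Ri-5* libraries at 10 DAF and between 29145 and 29318 at 5 DAF, and a gene absent from a library's list entered as 0. Tested with limma on log2(FPKM + 1) were the 21645 genes that averaged 1 FPKM or more in these 6 libraries. A gene was called higher or lower where the adjusted p was under 0.05 and the log2 values of the stages differed by 1 or more. The study speaks of caryopses in its results and of grains in its sequencing methods, and does not state whether the hull was included. RNA of whole organs was measured, so a smaller share of cells of a type and less RNA per cell cannot be told apart.

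In the days after pollination a rice caryopsis changes from an organ made mostly of maternal tissue into one filled by the endosperm. The nucellus and the inner layers of the pericarp are broken down, the endosperm first divides as a syncytium and then forms cells, and its cells turn to storage. Transcription factors mark these steps. NF-YB1 is a CCAAT-binding factor of the endosperm, MADS29 acts in the breakdown of the nucellus, and MADS13 and MADS21 belong to the MADS-box class of ovule identity.

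The identifiers of the MSU annotation were paired with names only through the list of factors with predicted sites in the promoter of *OsYUC11*, an auxin biosynthesis gene, that came with the study, and through its qRT-PCR reference *Ubq*. That list gives 128 genes with an identifier, of which 126 were listed in the 6 libraries and 111 were tested. Starch, sugar and storage protein genes and *RGB1* itself were not analysed here, because no table at hand pairs them with identifiers. The level of the targeted gene and the markers of starchy endosperm thus could not be checked against the labels. Of the early endosperm markers only *OsNF-YB1* could be used.

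For most of the factors whose levels changed, a chosen predicted site is shown as an example of the sequences they are listed with. Most have further sites in the list, and those of *OsHOX23*, *PCF6*, *RF2B* and Os01g0693400 are not shown. The sites lie in the *OsYUC11* promoter, with the core in capitals as the list marks it, and nothing was measured at them here.
OsMADS29, OsMADS21, OsMADS58, OsMADS2 and OsMADS34: cCAAAAaaact
OsARF1, OsARF3, OsARF22, OsARF24, OsARF5 and OsARF6: gAGACA
OsARF5 and OsARF6 in addition: gtTGTCGgg
ROC3 and ROC7: tgaATTAAtca
OsHOX2: atAATCAtga
OsNAC68: caGTCAAta
OsSPL10: aataaTGTACttaata
OsNF-YB1: CCAAT
The 5 MADS-box factors share the site shown whether they were higher or lower at 10 DAF, and so do the 6 auxin response factors for the first of theirs.

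Between 5 and 10 DAF, *RGB1Ri-5* caryopses gained transcripts of the endosperm factor *OsNF-YB1* and of the seed coat and ovule factors *OsMADS29* and *OsMADS21*, and lost most of the transcripts of *OsMADS2* and *OsNAC68*. Over all tested genes, 1554 were higher at 10 DAF, 7.18% of those tested, and 2108 were lower, 9.74%. The log2 fold change had a median of 0.08 over the tested genes. A smaller set of genes went on or off. By a fixed rule, 112 genes started, with a mean of at least 10 FPKM at 10 DAF and under 1 FPKM at 5 DAF, and 198 genes stopped, with the reverse. The rule also asked that the gene be called in that direction and that the libraries of the stages not overlap. The 112 and 198 genes are 0.517% and 0.915% of the tested genes. Replicates 2 and 3 at 10 DAF stood furthest from each other. Without replicate 3, 1634 genes were higher, 2437 lower, 141 started and 412 stopped, and without replicate 2, 1584 were higher, 1837 lower, 90 started and 153 stopped.

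**Figure D1:**
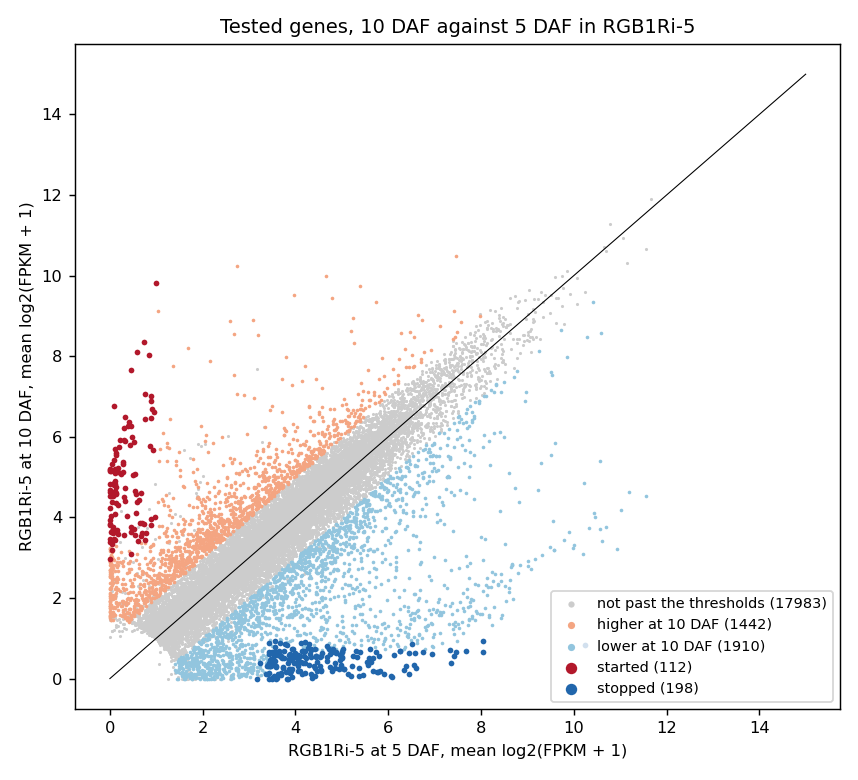
Mean log2(FPKM + 1) of each tested gene over 3 *RGB1Ri-5* libraries at 10 DAF (vertical axis) and at 5 DAF (horizontal axis), with the line of equal values. The 112 genes that started lie along the left edge and the 198 that stopped along the lower edge, away from the body of genes near the line.

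*OsNF-YB1* was the factor with the largest rise of the 111 tested and the only one among the genes that started. It lies on chromosome 2 from 30191470 to 30192489 of Release 7 (LOC_Os02g49410) and was at 17.5, 109.6 and 8.04 FPKM in *RGB1Ri-5* replicates 1 to 3 at 10 DAF, against 0.155, 0.607 and 0.0754 FPKM at 5 DAF. The stages did not overlap, but replicate 2 held most of the transcripts at 10 DAF, and at 5 DAF this endosperm marker was close to 0 in all 3 libraries. The log2 fold change was 4.39 (limma, SE 0.83, adjusted p = 0.00708). It was 3.36 without replicate 2 at 10 DAF, 5.17 without replicate 3 at 10 DAF and 6.31 with a pseudocount of 0.1, and remained past both thresholds in each. In *WYJ8* it averaged 301 FPKM at 10 DAF and 192 FPKM at 5 DAF, so no *RGB1Ri-5* library at 10 DAF reached the lowest *WYJ8* library, at 132.8 FPKM.

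The other NF-YB factors of the list did not pass the thresholds. *NFYB2* was at 11.7, 13.6 and 11.2 FPKM at 10 DAF and at 9.96, 9.01 and 8.36 FPKM at 5 DAF, a log2 difference of 0.38 (adjusted p = 0.0571, limma). *NFYB3* and *NFYB4*, which the list numbers differently in its name and its description, had log2 differences of 0.37 and 0.04. *DREB2C* (LOC_Os08g45110), a dehydration-responsive element binding factor, resembled *OsNF-YB1* in its replicates. It was at 0.746, 6.68 and 0.541 FPKM at 10 DAF and at 0.0505, 0.136 and 0.153 FPKM at 5 DAF. Here too replicate 2 was the highest. The stages did not overlap, but the log2 difference of 1.30 did not pass (adjusted p = 0.123, limma). It passed with a pseudocount of 0.1 (2.89, adjusted p = 0.0468, limma) and without replicate 3 of 10 DAF (1.72, adjusted p = 0.0455, limma).

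All 3 seed coat and nucellus MADS-box genes that could be paired were present at 5 DAF already, and 2 of the 3 were called higher at 10 DAF, against the 7.18% of all tested genes. *OsMADS29* (LOC_Os02g07430, chromosome 2 from 3833128 to 3837135) encodes a B-sister factor that acts in the breakdown of the nucellus. It was at 38.1, 30.7 and 34.4 FPKM at 10 DAF, against 6.48, 6.41 and 7.37 FPKM at 5 DAF. The replicates lay close together at both stages, far from the other stage, and the log2 fold change was 2.19 (limma, SE 0.13, adjusted p = 0.000137).
*OsMADS21* (LOC_Os01g66290, chromosome 1 from 38500879 to 38505127), of the ovule identity class, was at 82.2, 67.3 and 80.4 FPKM at 10 DAF and at 22.4, 25.8 and 27.1 FPKM at 5 DAF. Its log2 fold change was 1.57 (limma, SE 0.13, adjusted p = 0.000382). *OsMADS13* (LOC_Os12g10540), of the same class, was at 100.9, 73.1 and 121.2 FPKM at 10 DAF and at 64.6, 71.3 and 71.9 FPKM at 5 DAF. Its values did not overlap between the stages, but replicate 2 at 10 DAF was near the 5 DAF libraries, and the log2 difference of 0.47 did not pass (adjusted p = 0.0955, limma). Summed over the 3 genes, FPKM was 209 ± 34.1 at 10 DAF and 101 ± 6.73 at 5 DAF (SD, n = 3 each, 2-sided exact permutation p = 0.1, the smallest that 3 against 3 libraries allow).

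Most floral organ MADS-box genes stayed on in the knock-down caryopses. Of the 9 that could be paired, 1 was called higher and 1 lower, near the 16.9% of all tested genes called in either direction, and their median log2 difference was -0.22, against 0.08 for all tested genes. *OsMADS58* (LOC_Os05g11414, chromosome 5 from 6447182 to 6458100), a C-class gene, was the higher one, at 77.5, 65.8 and 81.9 FPKM at 10 DAF and at 26.8, 29.7 and 29.6 FPKM at 5 DAF, with a log2 fold change of 1.35 (limma, SE 0.12, adjusted p = 0.000533). The lower one was *OsMADS2* (LOC_Os01g66030, chromosome 1 from 38319059 to 38324074), a B-class gene of lodicules and stamens. It was at 16.03, 11.8 and 23.7 FPKM at 10 DAF, against 69.1, 63.2 and 78.0 FPKM at 5 DAF. Replicate 3 kept the most at 10 DAF, yet lay far below every 5 DAF library, and the log2 fold change was -2.02 (limma, SE 0.24, adjusted p = 0.00127).
*OsMADS7* and *OsMADS8*, of the E class that acts with the other classes, had the highest levels of the 9 at 10 DAF. *OsMADS8* was at 278, 216 and 306 FPKM at 10 DAF and at 161, 147 and 174 FPKM at 5 DAF, with a log2 difference of 0.71, and *OsMADS7* had one of 0.76 (adjusted p = 0.0156 and 0.0200, limma), both under the fold limit. *OsMADS34*, an E-class relative of inflorescence meristems that was not on the floral list, was at 5.29, 3.0 and 6.31 FPKM at 10 DAF and at 10.98, 11.3 and 9.69 FPKM at 5 DAF. Its log2 fold change was -1.03 (adjusted p = 0.0130, limma), a call lost without replicate 1 of 5 DAF (adjusted p = 0.0571), replicate 2 of 5 DAF (-0.99) or replicate 2 of 10 DAF (-0.78) and with array weights (-0.85). Summed over the 9 floral genes, FPKM was 864 ± 191 at 10 DAF and 753 ± 22.6 at 5 DAF (SD, n = 3 each, 2-sided exact permutation p = 0.4), and replicate 2 of 10 DAF, at 654, lay below all 5 DAF libraries while the other 10 DAF replicates lay above them. After median-of-ratios scaling the sums were 825 ± 89.3 at 10 DAF and 778 ± 18.3 at 5 DAF (SD). The sum was thus higher at 10 DAF in the mean under both scalings, although the median gene in FPKM was slightly lower.

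**Figure D2:**
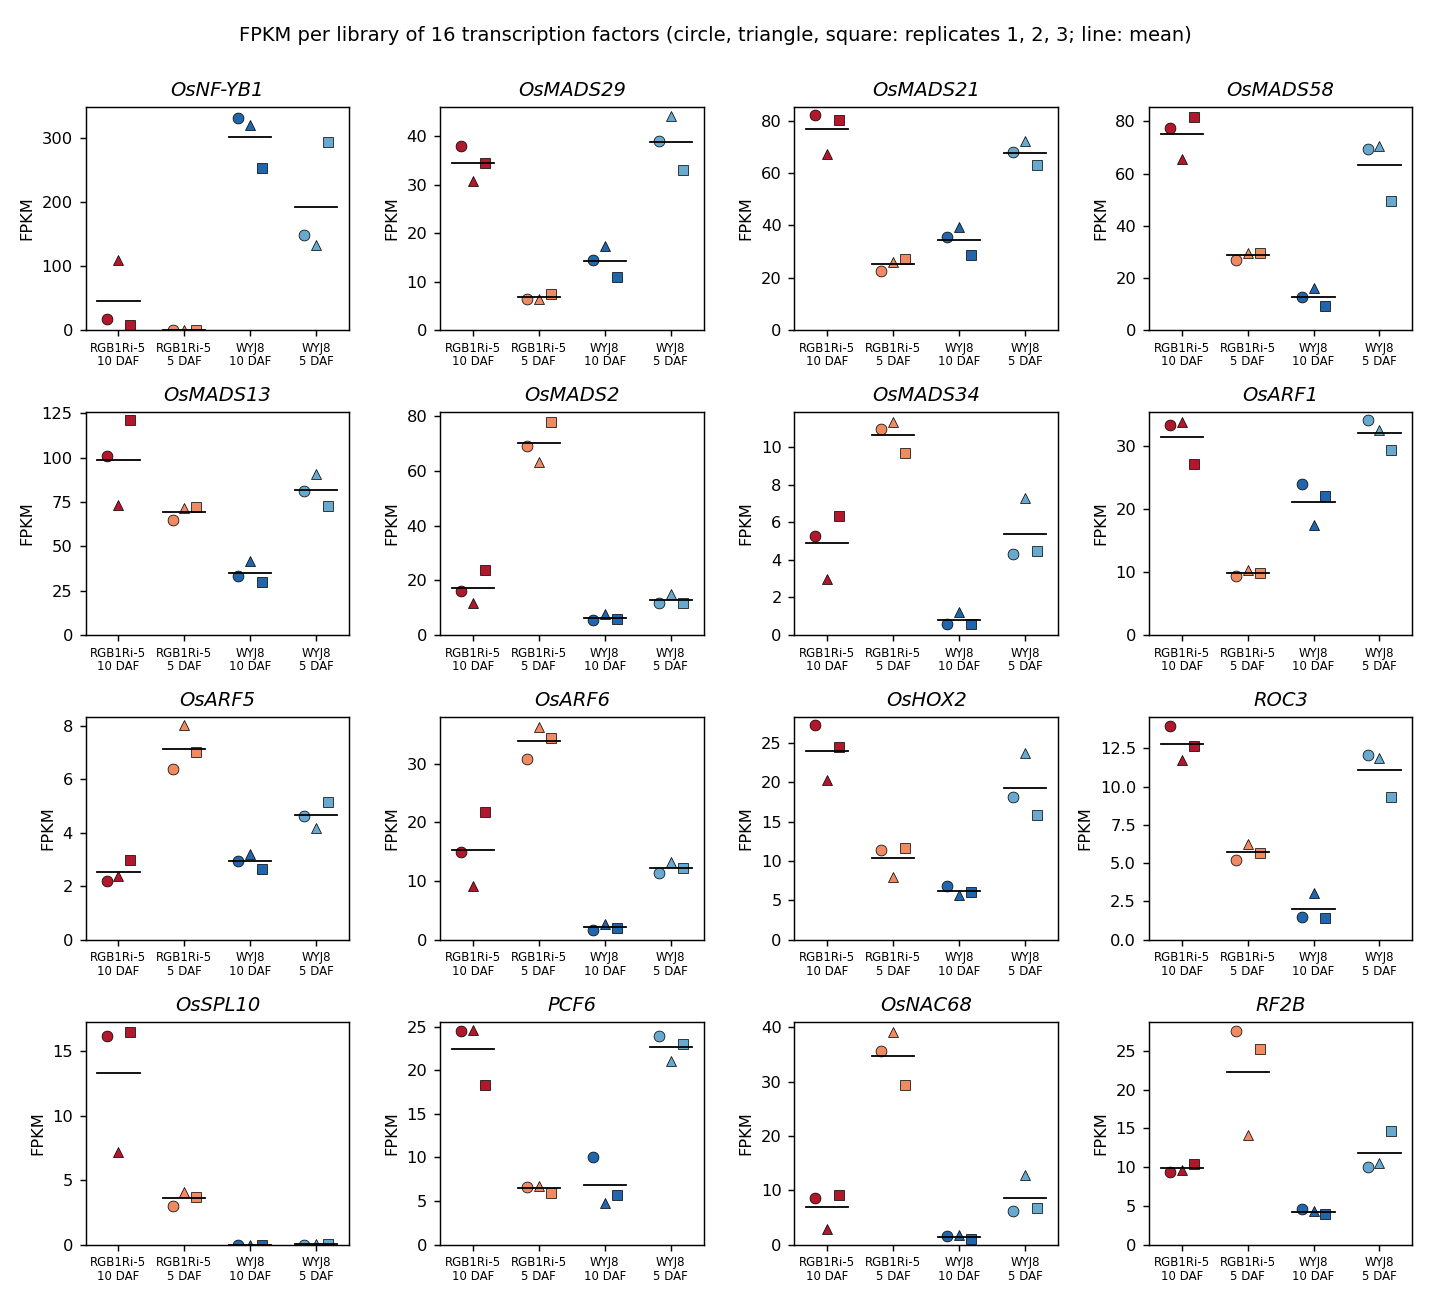
FPKM in each library (vertical axes, starting at 0) of 16 transcription factors in *RGB1Ri-5* at 10 DAF and 5 DAF and in *WYJ8* at 10 DAF and 5 DAF. Points are libraries and lines are means of 3. *OsNF-YB1* is spread over 8.04 to 109.6 FPKM in *RGB1Ri-5* at 10 DAF, whereas *OsMADS29* lies between 30.7 and 38.1 FPKM there.

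Auxin response factors (ARFs) bind promoters of auxin-regulated genes, and 23 of the 24 listed were tested. Of these, 4 were called higher, beside 7.18% of all tested genes, and 2 lower, beside 9.74%. With an equal total for every library 7 were higher, and 3 after median-of-ratios scaling. Their median log2 difference was 0.51, against 0.08 for all tested genes. *OsARF1* (LOC_Os01g13520) had the largest rise, with 33.3, 33.8 and 27.1 FPKM at 10 DAF and 9.40, 10.2 and 9.81 FPKM at 5 DAF, a log2 fold change of 1.58 (limma, SE 0.13, adjusted p = 0.000327). The most abundant of the 4 was *OsARF24* (LOC_Os12g29520), at 93.8, 98.5 and 90.8 FPKM at 10 DAF and at 36.3, 44.2 and 42.4 FPKM at 5 DAF. *OsARF22* and *OsARF3* rose by log2 fold changes of 1.13 and 1.07, and that of *OsARF3* was 0.99 after median-of-ratios scaling.
The falls were smaller in number. *OsARF5* (LOC_Os02g04810) was at 2.20, 2.37 and 2.99 FPKM at 10 DAF and at 6.38, 8.05 and 7.03 FPKM at 5 DAF, a log2 fold change of -1.21 (limma, SE 0.15, adjusted p = 0.00150). *OsARF6* (LOC_Os02g06910) was at 14.9, 9.15 and 21.8 FPKM at 10 DAF and at 30.9, 36.3 and 34.4 FPKM at 5 DAF. The spread of its 10 DAF replicates was wide, and the call (log2 fold change -1.17, adjusted p = 0.0163, limma) was lost without any of replicates 1, 2 and 3 of 5 DAF (adjusted p = 0.0531, 0.0559 and 0.0521) and without replicate 2 of 10 DAF (-0.87). Members of 1 family thus moved in both directions between the stages.

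Homeodomain leucine zipper (HD-ZIP) factors, several of which act in the epidermis of rice organs, had 27 tested members, of which 4 were higher, beside 7.18% of all tested genes, and none lower, beside 9.74%, at adjusted p under 0.05 and the fold limit. With no fold limit 2 were lower, and 5 were at an unadjusted p under 0.05 (limma). *OsHOX2* (LOC_Os06g04870) was at 27.3, 20.3 and 24.5 FPKM at 10 DAF and at 11.4, 8.01 and 11.7 FPKM at 5 DAF, a log2 fold change of 1.14 (limma, SE 0.18, adjusted p = 0.00362). *ROC3* (LOC_Os10g42490), of the outermost-cell group of the family, was at 13.9, 11.8 and 12.6 FPKM at 10 DAF and at 5.22, 6.28 and 5.64 FPKM at 5 DAF, a log2 fold change of 1.04. *OsHOX23* and *ROC7* had log2 fold changes of 1.13 and 1.02. All 4 lay close to the fold limit and fell under it in some settings, *OsHOX2* without replicate 2 of 5 DAF (0.98), *OsHOX23* without replicate 1 of 10 DAF (0.99), *ROC3* without replicate 1 of 5 DAF (0.98) or replicate 1 of 10 DAF (0.98) and after median-of-ratios scaling (0.95), and *ROC7* without replicate 3 of 5 DAF (0.87) and after that scaling (0.94).

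Each of the other families had at most 1 called member. *OsSPL10* (LOC_Os06g44860, chromosome 6 from 27114985 to 27117417), a squamosa promoter-binding-like factor, was the only 1 of 16 tested SPL genes called higher, with 16.2, 7.20 and 16.5 FPKM at 10 DAF and 3.0, 4.07 and 3.67 FPKM at 5 DAF, a log2 fold change of 1.57 (limma, SE 0.30, adjusted p = 0.00764). It was not listed in any *WYJ8* library at 10 DAF and was at no more than 0.0272 FPKM at 5 DAF. *PCF6* (LOC_Os03g57190), 1 of 6 tested TCP factors, was at 24.5, 24.6 and 18.3 FPKM at 10 DAF and at 6.62, 6.78 and 5.96 FPKM at 5 DAF, a log2 fold change of 1.64.
*OsNAC68* (LOC_Os01g60020, chromosome 1 from 34692829 to 34694391) fell the most of the 111 factors. It was at 8.53, 2.87 and 9.18 FPKM at 10 DAF, against 35.7, 39.2 and 29.4 FPKM at 5 DAF, with a log2 fold change of -2.30 (limma, SE 0.37, adjusted p = 0.00368), and replicate 2 had lost the most. The RAV factor Os01g0693400 (LOC_Os01g49830) was at 17.3, 16.6 and 19.1 FPKM at 10 DAF and at 35.9, 42.5 and 37.5 FPKM at 5 DAF, a log2 fold change of -1.08. The bZIP factor *RF2B* (LOC_Os03g21800) was at 9.43, 9.69 and 10.5 FPKM at 10 DAF and at 27.6, 14.1 and 25.2 FPKM at 5 DAF. Its call (log2 fold change -1.05, adjusted p = 0.0146, limma) was lost without replicate 1 of 5 DAF (adjusted p = 0.0592), replicate 3 of 5 DAF (0.0549) or replicate 1 of 10 DAF (0.0511).

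In all, 14 of the 111 factors were higher and 7 lower at 10 DAF, and their median log2 difference was 0.05. These shares stand beside 7.18% and 9.74% of all tested genes, and 16.9% for both directions. Without replicate 1 of 5 DAF, 4 factors were lower. The 21 called factors had no overlap between the stages, which the call itself makes likely with 3 libraries at each stage. Of all tested genes, most of which were not called, 53.4% had none.

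**Figure D3:**
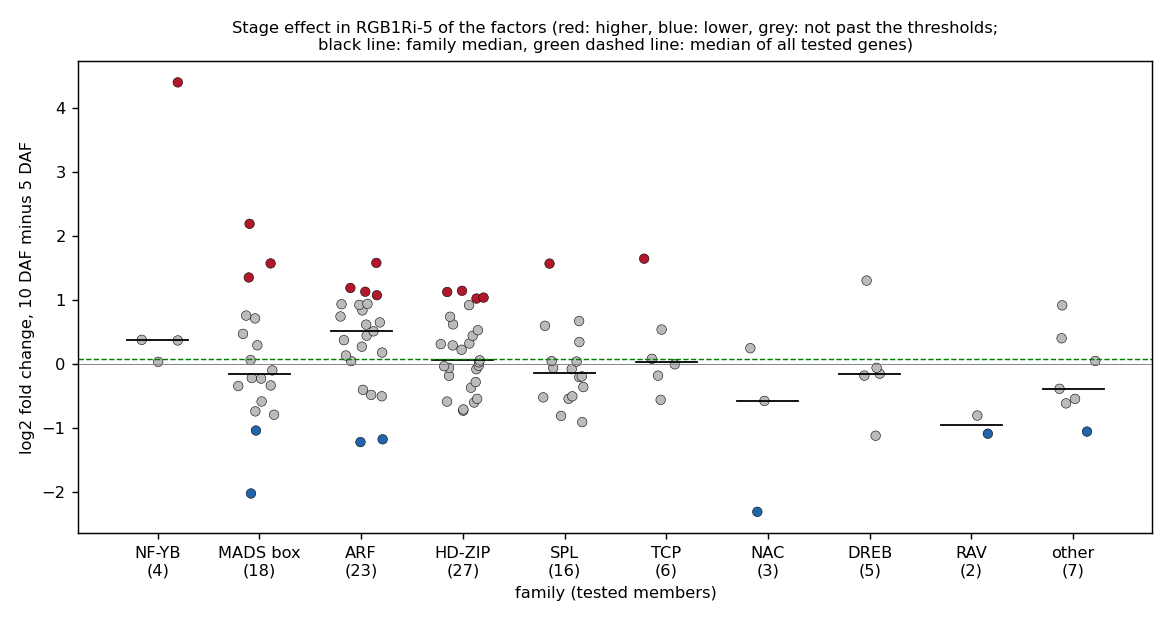
Log2 fold change between 10 and 5 DAF in *RGB1Ri-5* (vertical axis) of the 111 tested factors by family (horizontal axis, with the number tested). Red and blue points passed the thresholds as higher and lower, black lines are family medians and the green dashed line is the median of all tested genes, 0.08. *OsNF-YB1*, at 4.39, stands above every other factor.

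The genes that started reached a median of their mean levels of 29.3 FPKM at 10 DAF, within a range of 10.0 to 1070 FPKM. They made up 0.992%, 2.35% and 0.535% of the FPKM of replicates 1, 2 and 3 at 10 DAF, against 0.00562%, 0.00599% and 0.00565% at 5 DAF. In replicate 2, 109 of the 112 were at 10 FPKM or more, and in replicate 3, 76 were. All 112 were at 1 FPKM or more in each of the 3 replicates at 10 DAF, and 14 were unlisted in all 3 libraries at 5 DAF. They were found on all 12 chromosomes, with at most 17 on any chromosome, and 13 had another such gene within 50000 bp. No background was computed for that count of neighbours, which is only a description. The median length of the loci of the 112 genes was 1760 bp, against 3467 bp for all tested genes.
LOC_Os02g10800, on chromosome 2 from 5736603 to 5738853, had the largest rise. It was at 868, 1903 and 438 FPKM at 10 DAF, against 0.776, 1.27 and 0.948 FPKM at 5 DAF, a log2 fold change of 8.82 (limma, SE 0.48, adjusted p = 0.000123). LOC_Os10g05750, on chromosome 10 from 2897615 to 2899194, was at 575, 896 and 332 FPKM at 10 DAF and at 1.20, 0.847 and 1.15 FPKM at 5 DAF. With a mean of 1.06 FPKM at 5 DAF it had the next largest rise but was not among the 112 genes that started. The files do not pair these identifiers with names. Both ranked replicate 2 first and replicate 3 last at 10 DAF.

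The genes that stopped were at a median of 18.8 FPKM at 5 DAF, within a range of 10.0 to 1276 FPKM, and were not off to the same extent in the 10 DAF replicates. Their median FPKM was 0.0803, 0.0521 and 0.973 in replicates 1, 2 and 3 at 10 DAF, against 22.6, 16.5 and 18.4 at 5 DAF. In replicates 1 and 2, 195 of the 198 were under 1 FPKM, and in replicate 3, 103 were. The number that stopped rose to 412 without replicate 3, with 197 of the 198 among them. They too were on all 12 chromosomes, 35 had another within 50000 bp, again with no background computed, and the median locus was 1917 bp long.
LOC_Os05g33150, on chromosome 5 from 19445897 to 19447492, had the largest fall, to 0.542, 0.545 and 1.41 FPKM at 10 DAF, against 1185, 1805 and 837 FPKM at 5 DAF. Its log2 fold change was -9.41 (limma, SE 0.31, adjusted p = 3.3e-05). LOC_Os10g40090, on chromosome 10 from 21465008 to 21466849, was at 4.38, 0.559 and 97.1 FPKM at 10 DAF, against 2088, 1698 and 2079 FPKM at 5 DAF. With a mean of 34.0 FPKM at 10 DAF it was not among the 198 genes that stopped. It kept a clear level in replicate 3, and its log2 fold change of -7.70 (limma, SE 1.35, adjusted p = 0.00522) was -9.39 without that replicate and -6.41 without replicate 2 of 10 DAF. The files pair neither identifier with a name. None of the 111 factors was among the genes that stopped. The floral organ gene *OsMADS2* fell with these genes (log2 fold change -2.02) while the sum of the 9 floral genes did not. In that sum *OsMADS7*, *OsMADS8* and *OsMADS58* had higher values at 10 DAF. *OsMADS3*, *OsMADS5*, *OsMADS6*, *OsMADS14* and *OsMADS15* had log2 differences of -0.10, -0.23, -0.33, -0.22 and -0.58, none of them called. The part of floral tissue in the falls was not tested.

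High transcripts of the early stage were a large part of the 5 DAF libraries. The 300 genes that were called lower and had a mean of at least 100 FPKM at 5 DAF held 2.05%, 1.40% and 3.80% of the FPKM of replicates 1, 2 and 3 at 10 DAF, against 19.7%, 14.3% and 16.9% at 5 DAF. The 116 genes called higher with a mean of at least 100 FPKM at 10 DAF held 5.26%, 9.48% and 3.95% at 10 DAF, against 0.892%, 1.00% and 0.973% at 5 DAF. Both sets were chosen by these same values, so the contrast between the stages follows from the choice and is only a description. At 10 DAF, replicate 3 held the most of the early transcripts and the least of the late ones, and replicate 2 the reverse. The late set was chosen by a mean that includes the high values of replicate 2, so this order is likewise only a description.

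**Figure D4:**
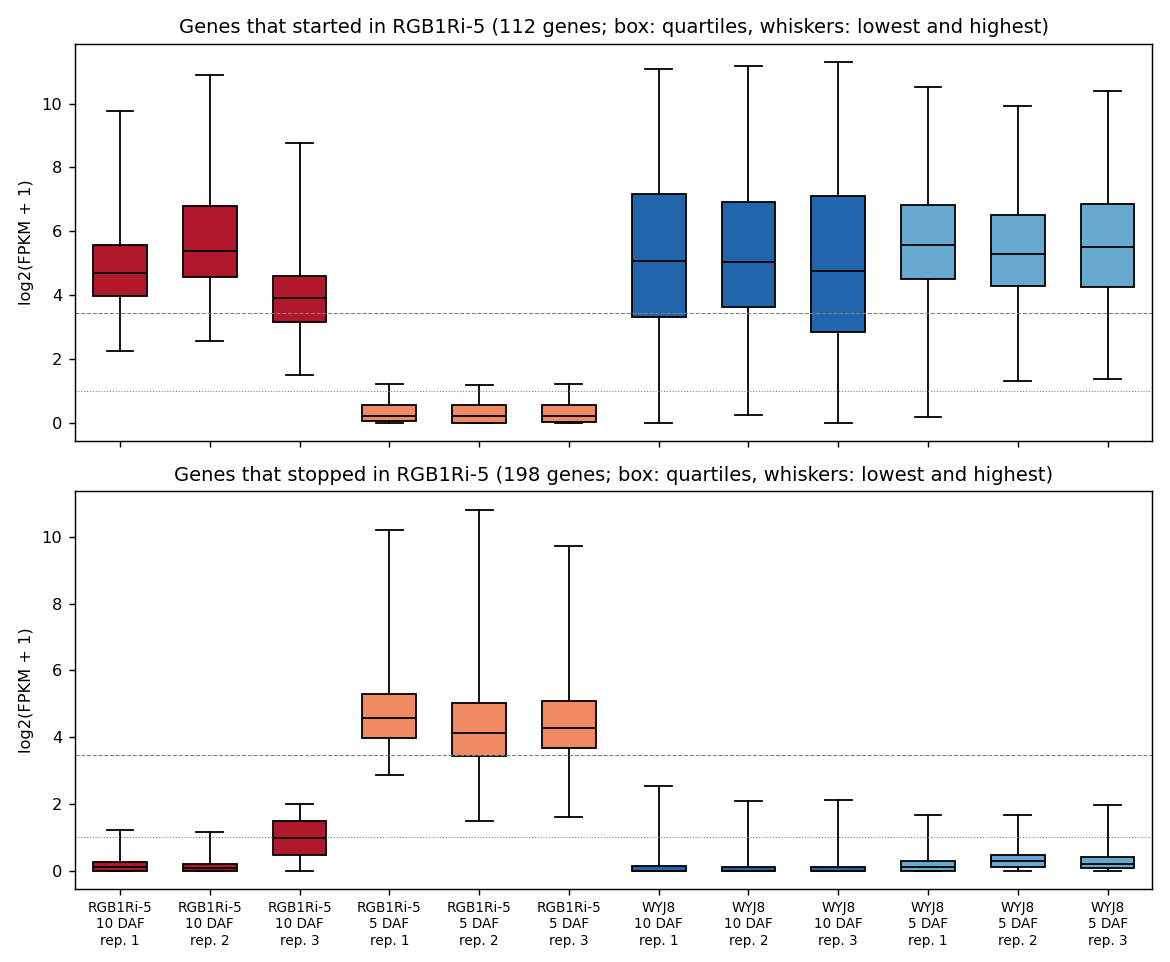
Log2(FPKM + 1) (vertical axes) of the 112 genes that started (upper panel) and the 198 that stopped (lower panel) in *RGB1Ri-5*, in each of the 12 libraries. Boxes are quartiles with the median, whiskers run to the lowest and highest gene, and the dotted and dashed lines are at 1 and 10 FPKM. In the lower panel replicate 3 of *RGB1Ri-5* at 10 DAF lies above replicates 1 and 2, and all *WYJ8* libraries are near 0.

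The replicates at 10 DAF differed more from each other than those at 5 DAF. Pearson's r of log2 values across the tested genes was 0.953, 0.960 and 0.904 between replicates 1 and 2, 1 and 3, and 2 and 3 at 10 DAF, and 0.969 to 0.987 at 5 DAF. Genes are not independent replicates, and these values describe the libraries only. In FPKM as deposited, the SD of log2 values over 3 libraries had a median of 0.22 at 10 DAF and 0.15 at 5 DAF. It was 0.14 and 0.17 in *WYJ8* at 10 and 5 DAF. These SDs include differences of scale between libraries. The median-of-ratios factors of replicates 1 to 3 were 1.10, 0.895 and 1.13 at 10 DAF and 0.923, 1.00 and 0.971 at 5 DAF. The SDs were not recomputed after this scaling. Among genes called higher the median SD was 0.29 at 10 DAF and 0.16 at 5 DAF, and among genes called lower it was 0.41 and 0.36.
The spread had an order. With the 5 DAF libraries, replicate 3 of 10 DAF had r of 0.824 to 0.850, replicate 1 of 0.722 to 0.760 and replicate 2 of 0.653 to 0.696. After median-of-ratios scaling, replicate 2 was the highest of the 3 for 67.4% of the genes called higher and replicate 3 for 71.3% of the genes called lower, against 44.1% and 33.1% of the genes that were not called. In FPKM as deposited these shares were 49.1% and 76.1%, against 16.2% and 50.9%. Replicate 2 was below the other replicates in 71.2% of the genes that were not called before this scaling and in 39.9% after it. In FPKM, the 7 factors called lower all had their highest 10 DAF value in replicate 3. For the 14 factors called higher, the highest was replicate 1 for 7, replicate 2 for 4 and replicate 3 for 3, and the lowest was replicate 2 for 8.

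Genes in which 1 replicate stood at least 2 log2 units above both others fell into 2 sets, chosen here by those values and described with no test. Replicate 2 did so for 112 genes, a set that differs from the equally many genes that started. Of these, 81 were not called, beside 17983 of the 21645 tested genes. Their median was 2.54, 70.8 and 2.11 FPKM in replicates 1, 2 and 3 at 10 DAF and between 0.459 and 0.846 FPKM at 5 DAF. They held 9.95% of the FPKM of replicate 2, against 0.392% of replicate 1 and 0.223% of replicate 3. In *WYJ8* the same genes had medians of 344 to 407 FPKM at 10 DAF and 29.4 to 89.8 FPKM at 5 DAF. There they held 42.3% to 47.3% of the FPKM of a library at 10 DAF and 4.29% to 12.7% at 5 DAF.
Replicate 3 stood above both others for 213 genes, of which 212 were called lower, beside 9.74% of all tested genes. Their median was 0.447, 0.149 and 16.1 FPKM in replicates 1, 2 and 3 at 10 DAF, against 195, 105 and 165 FPKM at 5 DAF. Replicate 1 stood above both others for 2 genes. At 5 DAF the largest such number was 19 genes, in replicate 2.

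**Figure D5:**
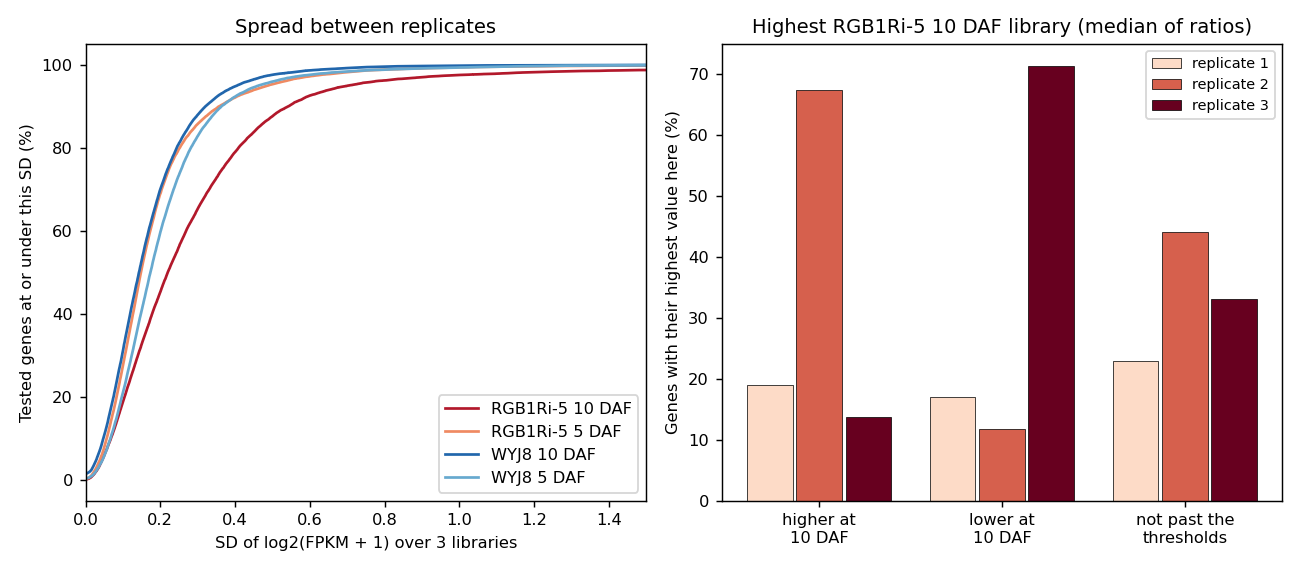
Left, share of the tested genes (vertical axis, %) at or under a given SD of log2(FPKM + 1) over 3 libraries (horizontal axis) in the 4 groups. The curve of *RGB1Ri-5* at 10 DAF, with a median SD of 0.22, lies to the right of the others. Right, share of genes (%) whose highest 10 DAF value was in replicate 1, 2 or 3 after median-of-ratios scaling, with replicate 2 at 67.4% for genes higher at 10 DAF and replicate 3 at 71.3% for genes lower at 10 DAF.

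The stage effect was set against that of *WYJ8* to see where the knock-down line differed. The difference of the stage effects, fitted over all 12 libraries and 21470 genes, was higher in *RGB1Ri-5* for 41.4% of these genes and lower for 6.94%, with a median of 0.86 on the log2 scale. After median-of-ratios scaling the median was -0.06, with 10.9% higher and 13.4% lower, so that the differences named here are given with both values. In *WYJ8*, 33.3% of these genes were called lower at 10 DAF and 2.11% higher in FPKM, with a median log2 change of -0.77. *OsMADS29*, which was called higher at 10 DAF in *RGB1Ri-5*, was among those called lower in *WYJ8* in FPKM (log2 fold change -1.40). Its difference was 3.59 (adjusted p = 5.69e-07, limma), and 2.52 after the scaling. Its means were 34.4 and 6.75 FPKM in *RGB1Ri-5* at 10 and 5 DAF, and 14.2 and 38.7 FPKM in *WYJ8*. The fall in *WYJ8* was not recomputed after the scaling. *OsMADS58* and *PCF6* likewise differed by 3.61 and 3.29, and by 2.56 and 2.28 after the scaling. For *OsMADS2* the fall was larger in *RGB1Ri-5*, with a difference of -1.11 (adjusted p = 0.00541, limma) and of -2.08 after the scaling. Its mean at 5 DAF was 70.1 FPKM in *RGB1Ri-5* and 12.8 FPKM in *WYJ8*. For *OsNAC68*, the difference was -0.39 (adjusted p = 0.477, limma) and -1.17 after the scaling, where it passed (adjusted p = 0.0443, limma). That of *OsARF5* was -0.70, under the limit, and -1.52 after the scaling, past it.
Of the 112 genes that started in *RGB1Ri-5*, the difference was higher for 107, and for 95 after the scaling. In *WYJ8* at 5 DAF, 106 of them had a mean of at least 10 FPKM and none a mean under 1 FPKM. Of the 198 that stopped, the difference was lower for all 198 under both scalings, and 194 had a mean under 1 FPKM in *WYJ8* at 5 DAF. Since the rule asked for a large stage effect in *RGB1Ri-5*, these shares are a description. Over all tested genes, the *RGB1Ri-5* libraries at 10 DAF had r of 0.901 to 0.978 with the *WYJ8* libraries at 5 DAF and of 0.761 to 0.924 with those at 10 DAF.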

How the data were processed

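Reads had been filtered, checked with FastQC, aligned to MSU Release 7 with TopHat2 2.1.0 and summarised with Cufflinks 2.1.1 (tools per the labels). The authors deposited FPKM per gene and library, and neither counts nor depths, so precision rests on 3 libraries per group. Whether strand was used is not given in the sources used here.

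Libraries were grouped by genotype and stage labels and joined by gene identifier. An unlisted gene was set to 0, and 549 of the 21645 tested genes were unlisted in at least 1 of the 6 libraries. Genes averaging 1 FPKM or more in the *RGB1Ri-5* libraries were fitted as log2(FPKM + 1) with limma 3.58.1 in R 4.3.3 (empirical Bayes with trend, no covariates, p adjusted by Benjamini-Hochberg over every tested gene). Fold changes on this scale understate changes of low genes. The difference of stage effects used all 12 libraries. Stated SE are of log2 fold changes. Summed FPKM were compared by 2-sided exact permutation tests. The fit was tested on simulated data.

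Members and lists were chosen with earlier results of these data known. Named genes were the members of fixed lists that could be paired with a name (13 of 64 identifiers), *OsNF-YB1*, *OsMADS29*, *OsMADS21*, *DREB2C*, *Ubq*, and the 2 largest rises and 2 largest falls among called genes at 10 FPKM or more without overlap. Genes ranked by level were left out, because the files give no names. The factor families and the called factors were added after their values were seen. Alternatives were a pseudocount of 0.1, other filters, 4 rescalings, all 12 libraries in the fit, no trend, array weights, a replicate block, no fold limit and each library left out. Promoter motifs were not searched.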

Additional observations from a re-analysis of the deposited data

Results flagged for a closer look

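Among 39 named genes, 29 had a stage effect that differed between *RGB1Ri-5* and *WYJ8* in the 12-library fit (adjusted p under 0.05 and a difference of at least 1 on the log2 scale, limma). The values are *RGB1Ri-5* minus *WYJ8*, beside a median of 0.86 over all tested genes, of which 41.4% passed as higher and 6.94% as lower. After median-of-ratios scaling, where that median was -0.06, 18 of the 29 passed in the same direction. Over all tested genes, 10.9% were then higher and 13.4% lower. Of the 39 genes, 25 were called between the stages of *RGB1Ri-5*, so the count of 29 is a description. No formal test for an outlying library was run on groups of 3.

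Of the MADS-box genes, the difference was 3.59 for *OsMADS29* (2.52 after the scaling), 3.61 for *OsMADS58* (2.56), 2.53 for *OsMADS21* (1.45), 2.39 for *OsMADS7* (1.31), 2.11 for *OsMADS8* (1.02) and -1.11 for *OsMADS2* (-2.08). Those of *OsMADS13*, *OsMADS3*, *OsMADS5*, *OsMADS6*, *OsMADS14* and *OsMADS15* were 1.68, 1.82, 1.74, 1.96, 1.75 and 2.03, and 0.61, 0.78, 0.82, 0.93, 0.73 and 0.98 after the scaling, in the same order, no longer past the limit. The endosperm factor *OsNF-YB1* differed by 3.66, and by 2.45 after the scaling (adjusted p = 0.0801, limma), and *NFYB2* by 1.04 (0.06).

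Of the auxin response factors, the difference was 2.32 for *OsARF22* (1.27 after the scaling), 2.16 for *OsARF1* (1.10), 1.61 for *OsARF24* (0.53) and 1.35 for *OsARF3* (0.30). Of the HD-ZIP factors, it was 3.08 for *ROC3* (2.22), 3.0 for *OsHOX23* (2.35), 2.62 for *OsHOX2* (1.62) and 1.85 for *ROC7* (0.84). *PCF6* differed by 3.29 (2.28), *OsSPL10* by 1.59 (1.46) and the RAV factor Os01g0693400 by -1.10 (-2.13). The unnamed genes differed by 9.10 for LOC_Os02g10800 (7.91), 9.03 for LOC_Os10g05750 (7.84), -9.04 for LOC_Os05g33150 (-9.22) and -5.46 for LOC_Os10g40090 (-5.84).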

How the results depend on the processing

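The counts of higher, lower, started and stopped genes stayed within 1.5 times their values under every alternative but those named here. With no fold limit, 4797 genes were higher and 3181 lower. With each library left out in turn, 1395 to 1634 genes were higher, 1654 to 2437 lower, 90 to 141 started and 153 to 412 stopped. The 412 came without replicate 3 of *RGB1Ri-5* at 10 DAF. The cause was not tested.

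For the difference of stage effects (8882 higher, 1491 lower), 2348 genes were higher and 2872 lower after median-of-ratios scaling, 2958 and 2483 after quantile normalization, and 4801 higher with an equal total that left out the 100 highest genes. With no fold limit 14430 were higher, and with a mean of at least 5 FPKM 872 were lower, where fewer genes were tested. With each library left out, 8261 to 9789 were higher and 1330 to 1605 lower.

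Of the 39 genes recomputed, no gene called between the stages changed direction. Among genes not called, the stage difference of *NFYB4* turned to -0.036 after median-of-ratios scaling and -0.089 with array weights, that of *OsMADS5* to 0.082 and that of *OsMADS14* to 0.037 with array weights. With a library left out, *NFYB4* ran between -0.014 and 0.091, *OsMADS3* between -0.19 and 0.011 and *OsMADS5* between -0.39 and 0.087, each crossing 0 without replicate 2 of 10 DAF. The difference of stage effects changed sign after median-of-ratios scaling for *RF2B* (0.21, then -0.72) and *Ubq* (0.94, then -0.16). Array weights put 79.7 on replicate 1 of 10 DAF and the estimate did not converge, so that this alternative carries little weight. Replicate numbers do not pair the libraries: same-numbered libraries of the stages had r of -0.10, 0.16 and 0.12 after removal of group means, and 2 of the 3 libraries of 10 DAF correlated best with another number. The replicate block gave 1573 higher and 2093 lower genes, 114 started and 199 stopped, and for the difference 8851 and 1486. Depth is unknown, so low values carry an error that could not be given.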

Other observations

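*Ubq* (LOC_Os03g13170, chromosome 3 from 7101980 to 7104766), the reference gene of the study's qRT-PCR, was itself not level between the stages of *RGB1Ri-5*. It was at 397, 390.4 and 368 FPKM at 10 DAF and at 204, 258 and 245 FPKM at 5 DAF, with no overlap. The log2 difference was 0.71 (SE 0.14, adjusted p = 0.00865, limma), under the fold limit, and it lay between 0.61 and 0.83 over the alternatives. By adjusted p alone, 4797 of the 21645 tested genes were higher at 10 DAF and 3181 lower, so such a difference was common.

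*DREB1B* (LOC_Os09g35010) rested on a library at 5 DAF. It was at 1.70, 0.341 and 1.24 FPKM at 10 DAF and at 11.8, 1.59 and 1.48 FPKM at 5 DAF, where replicate 1 stood apart, and its log2 difference of -1.12 did not pass (adjusted p = 0.219, limma).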
